A study of Mus musculus with 29 samples.

Results

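The genes described here encode subunits of the 5 complexes of mitochondrial oxidative phosphorylation. They were chosen by name from the 23366 genes counted in each library: symbols beginning Nduf with a, b, c, s or v and a digit, Sdha to Sdhd, symbols beginning Uqcr or Atp5, and Cox4 to Cox8 with a letter a to c, without Cox6b2 and without pseudogene names. The rule used no measured value and gave 81 genes, of which 37 belonged to complex I, 4 to complex II, 8 to complex III, 15 to complex IV and 17 to complex V. Atp5s and Atp5sl match the rule by name but encode no subunit of the synthase, and Ndufa4, counted here by its name with complex I, was later assigned to complex IV. The study profiled bone marrow stem and progenitor cells of C57BL/6 mice aged 8 to 12 weeks by bulk RNA sequencing, in 29 libraries. The sorted cells lacked lineage markers, carried cKit and Sca1, and were divided into a CD150-positive fraction, which is enriched for stem cells, and a CD150-negative fraction of multipotent progenitors. The 4 genotypes were wild type, Puma-/- (Puma is the p53 target gene Bbc3, which encodes a pro-apoptotic BH3-only protein), Mysm1-/-Puma+/- and Mysm1-/-Puma-/-. MYSM1 is a chromatin-bound deubiquitinase. The group lacking MYSM1 while keeping Puma thus carried 1 Puma allele; the submitters use it in place of Mysm1-/-, whose phenotype they say it shares. There were 3 CD150-negative libraries of each genotype, and among CD150-positive cells 4 of wild type, 2 of Puma-/-, 4 of Mysm1-/-Puma+/- and 7 of Mysm1-/-Puma-/-. Libraries keep the letters of their labels: A is Mysm1-/-Puma+/-, B and P are Mysm1-/-Puma-/-, C is Puma-/-, and D and W are wild type. Male and female mice were pooled per the labels, which do not say that the libraries came from separate animals, so p-values measure the spread between libraries.

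Oxidative phosphorylation makes ATP from the oxidation of NADH and succinate. Complex I (NADH dehydrogenase) and complex II (succinate dehydrogenase, also an enzyme of the tricarboxylic acid cycle) pass electrons to ubiquinone, complex III (cytochrome bc1) passes them to cytochrome c, and complex IV (cytochrome c oxidase) passes them to oxygen. Complexes I, III and IV pump protons across the inner mitochondrial membrane, and complex V (ATP synthase) uses their return to make ATP. All subunits of complex II and most of the others are encoded in the nucleus and imported. Quiescent hematopoietic stem cells are known to rely heavily on glycolysis, and their entry into cycling and commitment is accompanied by greater use of mitochondrial respiration.

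Total counts ran from 12304713 to 54339749 per library, and the 81 genes together took 0.519 to 0.912% of them. Slamf1, which encodes CD150, lay between 10.97 and 30.4 CPM (read counts scaled to library size) in the CD150-positive libraries and between 0.218 and 2.30 CPM in the CD150-negative ones, and Kit was at 449 CPM or more in all 29. Neither deleted gene checks its label here, because counts cover whole genes and the labels do not name the missing exons. In CD150-negative cells Mysm1 was at 122, 98.7 and 76.2 CPM in Mysm1-/-Puma+/-, at 80.9, 67.1 and 69.9 CPM in Mysm1-/-Puma-/- and at 108, 98.5 and 103 CPM in wild type. Bbc3 was at 20.7, 26.96 and 44.99 CPM in Mysm1-/-Puma+/-, at 22.04, 25.8 and 29.8 CPM in Mysm1-/-Puma-/- and between 4.23 and 7.78 CPM in wild type, so the groups are named by their labels. Libraries also differed in counts on 1471 receptor genes of smell (olfactory, vomeronasal, trace-amine), which blood cells are not known to use. This background lay between 622 and 9003 CPM, and NEG B1, POS B5, POS C2-5 and POS D2 were highest in their fractions, at 5809.8 CPM or more.

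Within the 81 genes, the catalytic pair of ATP synthase gave the most RNA in wild-type CD150-negative cells. Atp5b, the catalytic beta subunit of the F1 part, gave 15.9% of their summed level, and Atp5a1, its alpha partner, gave 10.5%. Per kilobase of counted gene length, a scale that depends on the annotated length, Atp5b was at 592 ± 53.1 CPM per kb (SD, n = 3). Atp5h, a subunit of the peripheral stalk, followed at 459 ± 44.4, then Cox6c at 402 ± 41.1 and Cox5b at 342 ± 25.1, both nuclear subunits of cytochrome c oxidase, and Atp5a1 at 302 ± 37.7 CPM per kb. Cox5b and Atp5a1 lay within their spread of each other. In wild-type CD150-positive cells the first 4 places were the same, with Atp5b at 593 ± 46.1, Atp5h at 524 ± 14.5, Cox6c at 424 ± 62.3 and Cox5b at 371 ± 23.5 CPM per kb (SD, n = 4). Uqcrb, a small subunit of complex III, followed at 359 ± 42.9 CPM per kb. Cox8b, Cox8c, Ndufs5 and Ndufa4l2 were among the lowest 5 in both fractions, at 0.483 CPM per kb or less, with Cox7b2 in CD150-negative and Cox6a2 in CD150-positive cells. Ndufs5, a complex I subunit, had 19 counts over all 29 libraries, and how reads that match several places were counted is not given in the sources used here. Cox8b and Ndufs5 were too low to be tested in any fit, and Cox8c could be tested only in the fit over all libraries, which left 78 testable genes in each fraction and 79 over both.

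Genes with tissue-specific partners used the widely expressed form. Ndufa4 made up 99.8 ± 0.169% of the per-length level it shares with Ndufa4l2 in wild-type CD150-negative cells (SD, n = 3), Cox7b 99.5 ± 0.436% of that with the testis form Cox7b2, and Cox8a 99.8 ± 0.259% of that with Cox8b and Cox8c. Cox7a2l, which encodes a supercomplex assembly factor, made up 64.7 ± 4.70% and Cox7a2 34.00 ± 4.78% of their set, while the heart and muscle form Cox7a1 gave 1.34 ± 0.404%. Of the 3 genes for the same mature c subunit of ATP synthase, Atp5g2 gave 48.98 ± 1.87%, Atp5g3 42.7 ± 1.20% and Atp5g1 8.36 ± 0.898%. These shares depend on the counted length, which was 647, 679 and 1603 bases in that order. Before division by length, their mean levels were 48.9, 44.6 and 20.5 CPM. In wild-type CD150-positive cells Atp5g3 gave 48.6 ± 5.06% and Atp5g2 42.9 ± 4.20% (SD, n = 4), shares that lay within their spread of each other. Of the tissue-specific forms compared, Cox6a2, the heart and muscle form of subunit 6a, had the largest share in wild-type CD150-negative cells. It was at 2.80, 3.50 and 3.18 CPM in the wild-type CD150-negative libraries, 10.6 ± 1.79% of its set with Cox6a1, and at 0, 0.683, 0 and 0 CPM in the wild-type CD150-positive libraries. In the other CD150-negative groups its share was 7.47 ± 7.72% in Mysm1-/-Puma+/-, 15.01 ± 9.86% in Mysm1-/-Puma-/- and 12.6 ± 3.29% in Puma-/-, within the spread of the first. Only 1 of the 4 wild-type CD150-positive libraries had a count on Cox6a2, and all 3 CD150-negative ones lay above it. The gene lies at chr7:135348950-135349880, minus strand (NCBIM37), inside the span of Itgad on the opposite strand; the strand setting of the counting is not given in the sources used here.

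Summed over the 81 genes, the level was highest in Mysm1-/-Puma+/- and lowest in Mysm1-/-Puma-/- in both fractions. In CD150-negative cells the sums were 8294, 9025 and 7274 CPM in the Mysm1-/-Puma+/- libraries, 6839, 7678 and 6473 CPM in wild type, 7294, 6634 and 6647 CPM in Puma-/- and 4828, 5759 and 6640.2 CPM in Mysm1-/-Puma-/-. All 3 Mysm1-/-Puma+/- libraries lay above all 3 Mysm1-/-Puma-/- libraries, while each of these groups overlapped wild type. As means, this was 8198 ± 879 CPM against 5743 ± 906 CPM, with wild type at 6996 ± 618 and Puma-/- at 6858 ± 378 CPM (SD, n = 3 each). The order of the 4 means was the same for each of the 5 complexes in CD150-negative cells. Complex IV went from 1054 ± 119 CPM in Mysm1-/-Puma+/- to 697 ± 104 CPM in Mysm1-/-Puma-/-. Complex II went from 555 ± 38.9 to 429 ± 50.9 CPM. In CD150-positive cells the Mysm1-/-Puma+/- libraries were widely spread, at 9895, 9334, 7623 and 6206 CPM, so that 1 of them lay below every other library of that fraction and 2 above every other. The Mysm1-/-Puma-/- group lay between 6399 and 7704 CPM (n = 7), wild type between 6976 and 8074 CPM (n = 4), and Puma-/- at 7613 and 7193 CPM. The libraries named P and W stood apart from those named B and D. Complex IV summed to 731 to 833 CPM in these 4 (P1 to P3 and W1) and to 838 to 1076 CPM in the CD150-positive B and D libraries. The median log2 CPM over the 81 genes was 5.36 to 5.48 against 5.67 to 5.87, and Fos, an immediate early gene, was at 11.5 to 218 CPM against 0.854 to 4.21 CPM. No Mysm1-/-Puma+/- or Puma-/- library has these letters, so medians with and without them are given for CD150-positive cells. In bulk RNA of a sorted fraction, fewer cells of a type and less RNA per cell cannot be told apart.

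**Figure D1:**
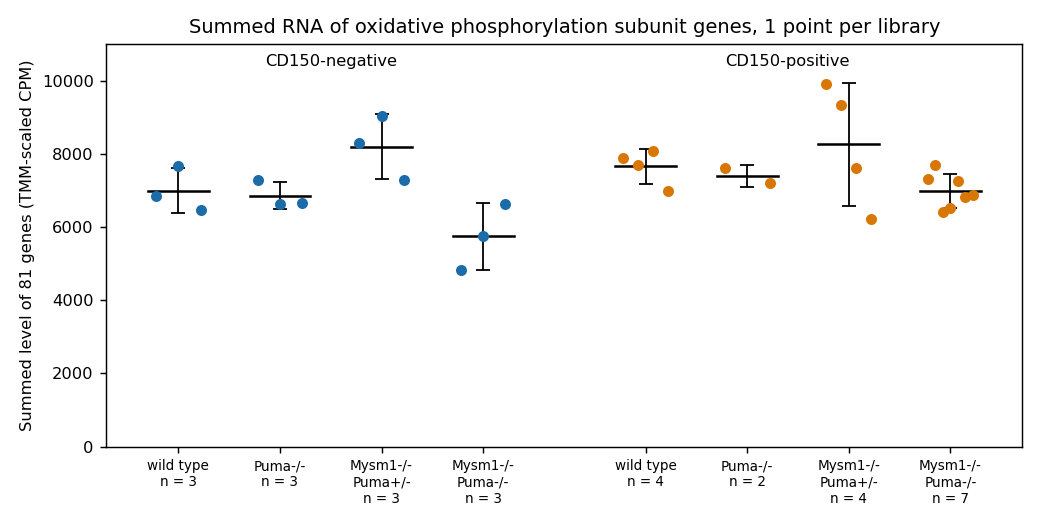
Summed level of the 81 oxidative phosphorylation genes in CPM, by group and sorted fraction, with each point a library and bars for the mean and SD of its group. In CD150-negative cells the Mysm1-/-Puma+/- libraries, from 7274 to 9025 CPM, lie above the Mysm1-/-Puma-/- libraries, from 4828 to 6640.2 CPM.

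Of the 10 genotype comparisons, the loss of the remaining Puma allele in the absence of MYSM1 (Mysm1-/-Puma-/- minus Mysm1-/-Puma+/-) gave the most called genes, and did so in CD150-negative cells. Of the 78 genes tested, 32 fell (edgeR's quasi-likelihood test, Benjamini-Hochberg adjusted over all genes tested, under 0.05) and 0 rose, whereas 2.44% of all 21168 genes fell and 0.326% rose by the same rule. At an unadjusted p under 0.05, 71 were lower, against 10.8% of all genes. All 3 Mysm1-/-Puma-/- libraries lay below all 3 Mysm1-/-Puma+/- libraries in 62 of the 78, against 9.48% of all genes. The median log2 fold change of the 78 was -0.57, with 0.09 over all genes. The genes that fell came from all 5 complexes: 12 of 36 tested in complex I, 1 of 4 in II, 5 of 8 in III, 6 of 13 in IV and 8 of 17 in V. The medians by complex lay close together, at -0.55, -0.53, -0.59, -0.65 and -0.58 in that order.

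In complex I, the genes with the smallest p were accessory subunits of the membrane arm. Ndufb5 (chr3:32635912-32650488, plus strand, NCBIM37, on whose span Mrpl47 lies on the opposite strand) was at 52.8, 49.1 and 46.02 CPM in Mysm1-/-Puma+/- and at 26.3, 29.2 and 36.98 CPM in Mysm1-/-Puma-/-, a log2 fold change of -0.76 (SE 0.16, edgeR adjusted p = 0.0164). Ndufb2 (chr6:39542573-39553381, plus strand) went from 23.8, 20.6 and 14.1 to 9.71, 9.77 and 11.9 CPM, and its fold change of -0.98 (SE 0.21, edgeR adjusted p = 0.0169) was the lowest of the 78. Its span is shared with Adck2 on the same strand and Braf on the other. Ndufb7 (chr8:86090570-86095525, plus strand) was at 68.7, 74.8 and 58.1 against 37.7, 38.9 and 50.4 CPM, a change of -0.75 (SE 0.16, edgeR adjusted p = 0.0205). In each of these 3 genes every Mysm1-/-Puma-/- library lay below every Mysm1-/-Puma+/- library. Among the 7 catalytic core subunits encoded in the nucleus, 2 of 7 fell: Ndufv1, which carries the FMN that takes electrons from NADH, and Ndufs1, the largest iron-sulfur subunit. Ndufv1 was at 101, 105 and 73.8 CPM in Mysm1-/-Puma+/- and at 58.3, 61.2 and 67.2 CPM in Mysm1-/-Puma-/- (log2 fold change -0.66, edgeR adjusted p = 0.029). Ndufs1 went from 142, 143 and 122 to 89.9, 91.8 and 105 CPM (log2 fold change -0.59, edgeR adjusted p = 0.0378). Both groups were separate in both genes. Ndufb8, an accessory subunit often used as a mark of assembled complex I, fell by 0.72 (edgeR adjusted p = 0.0313). Ndufa4 was called although its libraries overlapped, at 59.3, 70.3 and 37.2 against 25.2, 28.3 and 39.4 CPM.

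In complex II 1 gene fell. Sdhd, a membrane anchor, went from 59.5, 70.8 and 61.1 to 37.4, 44.9 and 51.4 CPM (log2 fold change -0.60, edgeR adjusted p = 0.0441). Sdha, the flavoprotein that oxidises succinate, was at 325, 351 and 315 CPM in Mysm1-/-Puma+/- and 246, 260.1 and 293 CPM in Mysm1-/-Puma-/-, -0.39 with an edgeR adjusted p of 0.142. The iron-sulfur subunit Sdhb was at -0.52 (edgeR adjusted p = 0.104). All 4 had separate groups. In complex III, 5 of 8 fell: Uqcrb, Uqcrh, Uqcrc1, Uqcrc2 and Uqcr10. Uqcrb went from 200.04, 194 and 141 to 99.5, 115 and 129 CPM (log2 fold change -0.72, edgeR adjusted p = 0.0221). The core subunits Uqcrc1 and Uqcrc2 fell by 0.57 and 0.51 (edgeR adjusted p = 0.043 and 0.0438). The Rieske iron-sulfur protein Uqcrfs1, which carries out the electron transfer, was at -0.44 and did not pass (edgeR adjusted p = 0.0978).

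In complex IV, Cox7b (chrX:103211039-103217789, plus strand) was at 190.4, 193 and 139 CPM in Mysm1-/-Puma+/- and 82.8, 104 and 122 CPM in Mysm1-/-Puma-/-, a log2 fold change of -0.84 (SE 0.17, edgeR adjusted p = 0.0124). Cox5b (chr1:36748332-36750230, plus strand), a zinc-binding subunit on the matrix side, went from 225, 255 and 196 to 109.7, 143 and 168 CPM (log2 fold change -0.76, SE 0.16, edgeR adjusted p = 0.0178). Cox6c went from 253, 303 and 203 to 129, 158 and 190.1 CPM (log2 fold change -0.75, edgeR adjusted p = 0.0252), and Cox7a2, Cox6b1 and Cox8a also fell. These groups did not overlap. Cox5a, the partner of Cox5b in the matrix domain, lay just outside the threshold at -0.71 (edgeR adjusted p = 0.0532), and Atp5e lay just inside it (edgeR adjusted p = 0.0487). Cox6a2 did not follow: it was at 0.601, 1.25 and 4.68 CPM in Mysm1-/-Puma+/- and 2.58, 6.62 and 0.936 CPM in Mysm1-/-Puma-/-, overlapping widely.

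In complex V, Atp5o had the smallest p of all 78 genes. It encodes OSCP, the subunit that joins the peripheral stalk to the top of the F1 head. Its level was 87.7, 106 and 78.4 CPM in Mysm1-/-Puma+/- and 49.8, 55.5 and 60.7 CPM in Mysm1-/-Puma-/-, a log2 fold change of -0.79 (SE 0.15, edgeR adjusted p = 0.00726). The annotated span (chr16:91684643-91931932, minus strand, NCBIM37) holds 7 other genes, among them Donson and Cryzl1 on the same strand. Atp5k (chr5:108862263-108863467, minus strand) and Atp5l (chr9:44721333-44728825, minus strand) encode the small membrane subunits e and g, which act in dimers of the synthase. Atp5k went from 74.8, 70.4 and 45.8 to 30.2, 33.5 and 41.1 CPM (log2 fold change -0.94, SE 0.20, edgeR adjusted p = 0.0185), and Atp5l from 141, 149.8 and 105 to 72.9, 83.4 and 98.4 CPM (log2 fold change -0.71, SE 0.15, edgeR adjusted p = 0.0193). The groups were separate in all 3 genes. Of the catalytic pair, Atp5a1 fell, from 882, 973 and 762 to 486, 605 and 683 CPM (log2 fold change -0.64, edgeR adjusted p = 0.0408). Atp5b was at 1211, 1477 and 1161 against 747, 891 and 1142 CPM, -0.55 with an edgeR adjusted p of 0.0828, and its groups did not overlap either. The 2 genes that encode no subunit stood apart from the rest: Atp5s was at 0.02 and Atp5sl at -0.06, with overlapping libraries.

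**Figure D2:**
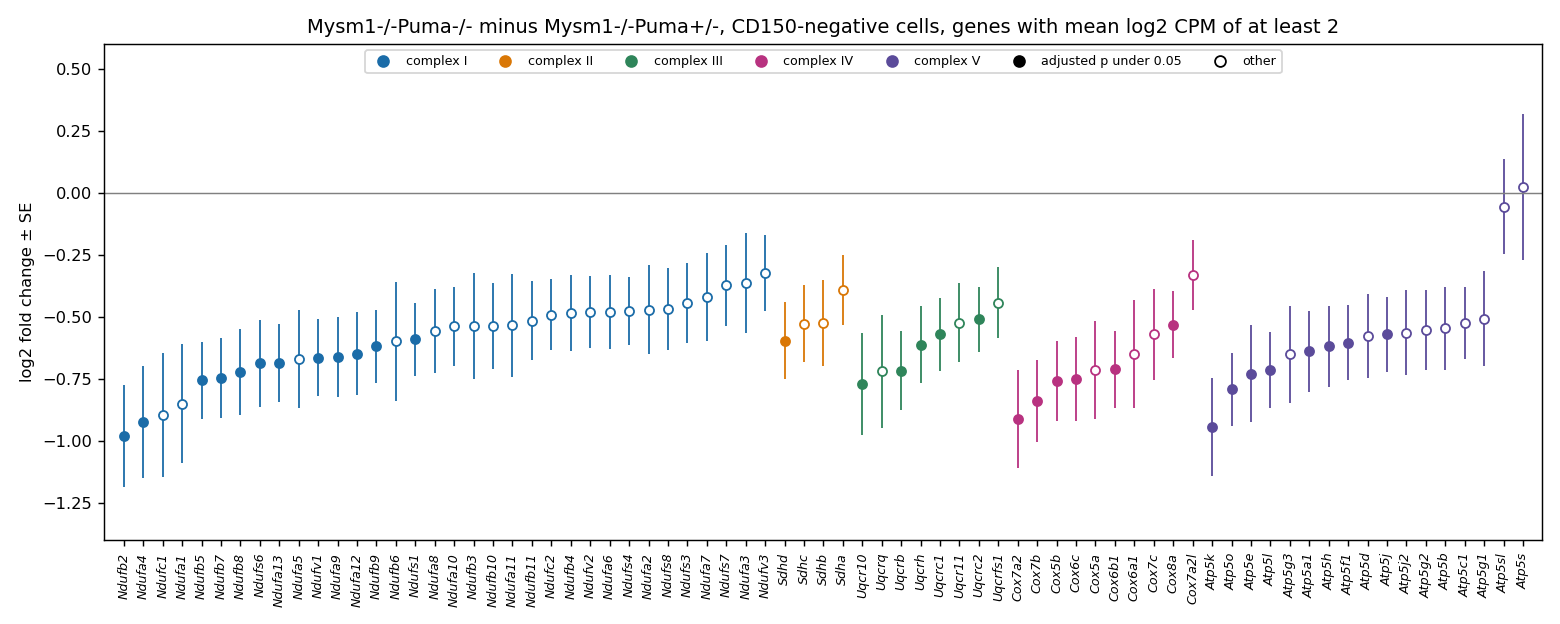
Log2 fold change, with its standard error, of the oxidative phosphorylation genes above a mean log2 CPM of 2, between Mysm1-/-Puma-/- and Mysm1-/-Puma+/- CD150-negative cells, grouped by complex, with genes under an adjusted p of 0.05 marked. Nearly all lie below 0, from -0.98 for Ndufb2 upward, and Atp5s and Atp5sl lie near 0.

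The count of genes that fell rested on single libraries while the direction did not. It was 1 without A1, 0 without A2, 48 without A3, 1 without B1, 2 without B3 and 54 without B5, and the median stayed between -0.69 and -0.46 in these 6 fits. The same contrast gave 59 genes by DESeq2 and 57 by limma-voom with quality weights, and 12 with the receptor background as a covariate. The share of all genes called under these settings is not given here. The background itself was 2993, 3078 and 1042 CPM in the Mysm1-/-Puma+/- libraries and 5809.8, 2923 and 3192 CPM in the Mysm1-/-Puma-/- libraries, highest in B1, which also had the lowest summed level. Mitosis genes moved with the subunits. 17 of 20 markers of dividing cells fell, among them Ccna2 at -1.04 (edgeR adjusted p = 0.00244), Bub1 at -1.003 (edgeR adjusted p = 0.00557) and Kif2c at -1.002 (edgeR adjusted p = 0.00283). Their mean log2 CPM was 6.82, 6.82 and 6.42 in Mysm1-/-Puma+/-, 5.71, 6.09 and 6.10 in Mysm1-/-Puma-/- and 7.01, 6.86 and 6.85 in wild type. A3, the Mysm1-/-Puma+/- library with the lowest summed subunit level, also had the lowest mitosis level of its group. The part of the receptor background and of cell division in the subunit difference was not tested.

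A larger share of short than of long genes fell in this comparison, and most of the subunit genes are short. Among genes whose mean log2 CPM reached 5, 132 of 315 genes under 1000 bases fell, with a median of -0.55, beside 17 of 30 subunit genes of that length with a median of -0.62. From 1000 to under 2000 bases, 125 of 830 genes fell (median -0.35) beside 8 of 16 subunit genes (median -0.56). At 2000 bases or more, 160 of 4725 genes fell (median -0.08) beside 2 of 6 subunit genes (median -0.46). The gap between the subunit genes and all genes of their length was thus smallest for the shortest genes. The part of gene length in the difference was not tested.

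**Figure D3:**
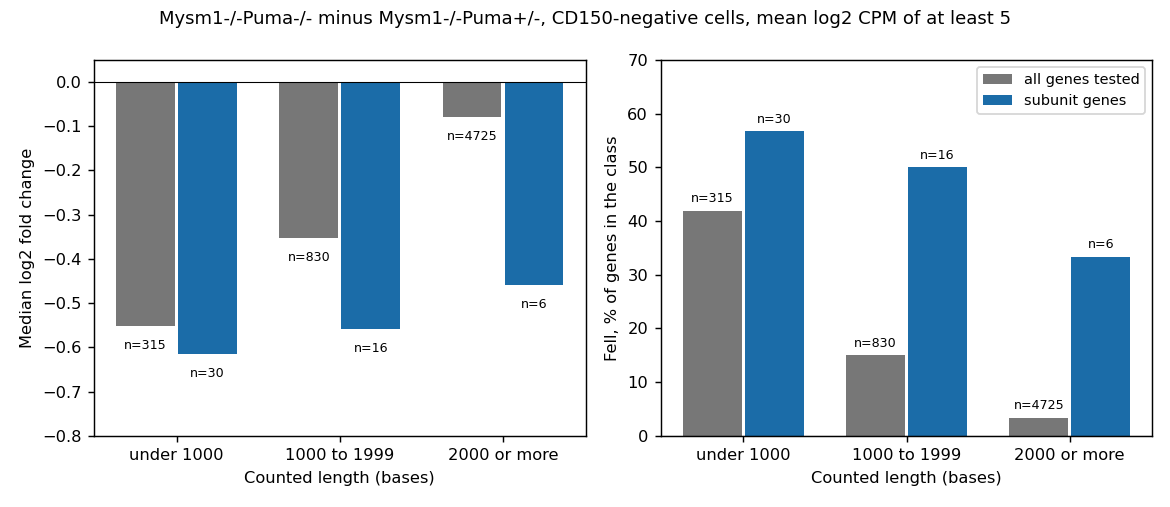
Median log2 fold change by gene length, for all genes and for the oxidative phosphorylation genes whose mean log2 CPM reached 5, between Mysm1-/-Puma-/- and Mysm1-/-Puma+/- CD150-negative cells. The medians of all genes go from -0.55 under 1000 bases to -0.08 at 2000 bases or more, and those of the subunit genes from -0.62 to -0.46.

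Other genes of the pathway did not all move alike in the same comparison. Of 8 further subunits and carriers that the name rule missed, 6 fell, with a median of -0.66: Cox4i1, the subunit 4 of cytochrome c oxidase, was at -0.61 (edgeR adjusted p = 0.0404), Ndufab1, the acyl carrier of complex I, at -0.61 (edgeR adjusted p = 0.0404), and 2010107E04Rik, a small protein of ATP synthase, at -0.94 (edgeR adjusted p = 0.0114). Of the assembly factors, which build the complexes and are not part of them, 0 of 36 were called by edgeR, with 7 lower at an unadjusted p under 0.05 and a median of -0.19. Of the genes of mitochondrial biogenesis and genome maintenance, 0 of 19 were called, with 4 lower and 1 higher unadjusted and a median of -0.11. In the tricarboxylic acid cycle 1 of 18 fell, the succinyl-CoA ligase subunit Sucla2 at -0.64 (edgeR adjusted p = 0.0317), and 15 were lower unadjusted. In glycolysis 4 of 19 fell, with a median of -0.35: lactate dehydrogenase Ldha was at -0.79 (edgeR adjusted p = 0.021), phosphoglycerate kinase Pgk1 at -0.83 (edgeR adjusted p = 0.021) and hexokinase Hk1 at -0.60 (edgeR adjusted p = 0.0295). No mitochondrially encoded subunit was among the genes counted. Among markers of blood lineages, 2 genes fell. The megakaryocyte gene Selp was at -1.18 (edgeR adjusted p = 0.029) and the stem cell gene Mecom at -0.52 (edgeR adjusted p = 0.0464). By edgeR 0 of 10 erythroid, 15 granulocyte and monocyte, 9 B cell, 12 T and NK cell, 7 mast cell and 9 progenitor markers were called. Unadjusted, 3 of the progenitor markers were higher and 1 lower, and 1 T and NK cell marker was higher and 1 lower, with 0 in the other 4 lists. Hemoglobin genes stayed below 1 CPM in every library.

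Promoters of some subunit genes that fell, picked for holding a match, are shown with motifs of factors known for nuclear genes of respiration. RefSeq promoter windows (GRCm38.p6, 250 bases before to 50 after the start) were matched for 68 of the 81 genes, 3 of them by an older symbol, giving 74 windows. The letters searched on both strands were GCGCA and GCGC with any 1 base between them for NRF1, CCGGAAGT for GABP and CAAGATGGC for YY1. NRF1 letters stood in 18 of 74 windows, 24.3%, against 4.6% of all 32851 windows. GABP letters stood in 5 (6.76% against 3.89%) and YY1 letters in 8 (10.8% against 1.24%). Of the 32 genes that fell in Mysm1-/-Puma-/- CD150-negative cells, 26 had a window, and 9 of those held any of the 3 motifs, against 27 of all 68 genes with a window. A match is a description of the letters only. Below are the 250 bases before the start, 5′ to 3′ on the gene's strand, of Atp5k and Ndufs6, whose capitals mark the NRF1 letters 50 and 16 bases before the start (in Ndufs6 on the reverse strand), and of Uqcrh, whose capitals mark the GABP letters on the reverse strand 11 bases before it.
Atp5k (chr5:108434400-108434649, minus strand): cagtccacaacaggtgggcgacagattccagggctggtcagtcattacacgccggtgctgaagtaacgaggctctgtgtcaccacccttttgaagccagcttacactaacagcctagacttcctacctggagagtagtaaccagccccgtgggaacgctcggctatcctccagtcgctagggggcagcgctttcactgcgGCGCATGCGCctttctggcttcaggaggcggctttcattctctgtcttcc
Ndufs6 (chr13:73328483-73328732, minus strand): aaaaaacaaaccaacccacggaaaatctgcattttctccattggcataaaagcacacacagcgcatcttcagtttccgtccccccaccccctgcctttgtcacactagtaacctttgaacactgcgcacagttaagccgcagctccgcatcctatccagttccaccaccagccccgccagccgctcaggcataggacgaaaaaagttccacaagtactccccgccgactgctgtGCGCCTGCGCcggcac
Uqcrh (chr4:116075071-116075320, minus strand): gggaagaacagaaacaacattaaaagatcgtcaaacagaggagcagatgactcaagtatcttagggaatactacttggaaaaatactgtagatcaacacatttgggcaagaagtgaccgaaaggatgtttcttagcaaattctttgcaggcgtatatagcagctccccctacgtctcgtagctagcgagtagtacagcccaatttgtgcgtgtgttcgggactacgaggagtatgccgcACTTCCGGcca
In CD150-negative cells Ndufs6, an accessory subunit of the electron-input arm of complex I, went from 37.4, 40.9 and 30.5 CPM in Mysm1-/-Puma+/- to 20.3, 22.7 and 28.4 CPM in Mysm1-/-Puma-/- (log2 fold change -0.69, edgeR adjusted p = 0.0426). Uqcrh, the hinge protein next to cytochrome c1, went from 144, 145 and 124 to 77.9, 103 and 104 CPM (log2 fold change -0.61, edgeR adjusted p = 0.0404).

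Against wild type, the double mutant CD150-negative cells were lower in these genes on median. In Mysm1-/-Puma-/- minus wild type, 1 of 78 fell and 0 rose (edgeR's quasi-likelihood test), where 1.89% of all genes fell. Unadjusted, 33 were lower, against 7.61% of all genes, and 22 had all 3 mutant libraries below all 3 wild-type ones, against 9.36%. The median was -0.34, with 0.02 over all genes. The gene that fell was Atp5o, at 49.8, 55.5 and 60.7 CPM against 79.8, 86.8 and 73.9 CPM in wild type, a log2 fold change of -0.59 (SE 0.15, edgeR adjusted p = 0.0297), with separate groups. Its call was lost without B1, B3, D2 or D3, and 8 genes were called without B5. The median was -0.20 without B1 and -0.18 without D3. The next by p did not pass: Atp5d, the delta subunit of the F1 rotor stalk, at -0.60 (SE 0.17, edgeR adjusted p = 0.0693), Cox8a at -0.47 (edgeR adjusted p = 0.0712), and Uqcrq, a small subunit of complex III, at -0.78 (edgeR adjusted p = 0.0824). Uqcrq was at 14.2, 19.9 and 17.4 CPM against 27.7, 28.5 and 29.2 CPM in wild type. Here 19 of 20 mitosis markers fell, with a median of -0.99.

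Mysm1 loss with a Puma allele present moved the median of these genes the other way. In Mysm1-/-Puma+/- minus wild type CD150-negative cells, 0 of 78 were called by edgeR, where 0.973% of all genes were, while 2 were called by DESeq2 and 12 by limma-voom. For the latter tools the share of all genes called is not given here. At an unadjusted p under 0.05, 18 were higher and 0 lower, against 5.69% of all genes higher. In 17 genes all 3 mutant libraries lay above all 3 wild-type libraries, against 7.43% of all genes. The median was 0.24, with -0.05 over all genes, and 72 of the 78 were above 0. The smallest p belonged to Ndufa13, a complex I subunit also known as GRIM19, at 101, 103 and 89.8 CPM against 57.05, 79.2 and 63.4 CPM in wild type (log2 fold change 0.58, SE 0.16, edgeR adjusted p = 0.0947). Uqcrb was at 200.04, 194 and 141 against 119.8, 133 and 110.0 CPM (log2 fold change 0.59, SE 0.16, edgeR adjusted p = 0.0949) and Cox7a2 at 37.7, 30.4 and 25.5 against 21.2, 20.2 and 18.8 CPM (log2 fold change 0.66, SE 0.20, edgeR adjusted p = 0.149). In these 3 genes the groups did not overlap. Cox7b was at 0.46 (edgeR adjusted p = 0.276) with overlapping libraries. Leaving out A3 gave 2 calls and leaving out D3 gave 1. Mitosis markers were not higher here: 0 of 20 were called, with 0 higher and 3 lower unadjusted, and their median was -0.17. Markers of other cells also differed in this comparison, some higher and some lower. The mean log2 CPM of the progenitor and lymphoid priming markers was 5.69 to 6.71 in Mysm1-/-Puma+/- and 6.84 to 7.16 in wild type, without overlap, with 5 of 9 lower unadjusted and 1 called, Ccr9 at -1.77 (edgeR adjusted p = 0.0477). The megakaryocyte markers summed to 83.4 to 123 CPM against 64.4 to 69.96 CPM, with 6 of 13 higher unadjusted and 1 that rose, Selp at 2.33 (edgeR adjusted p = 5.36e-05), while 1 fell. Neither list was separate on both measures. The progenitor sums were 1405 to 2966 against 2944.5 to 3673 CPM, and the megakaryocyte mean log2 CPM 0.837 to 2.19 against 0.0576 to 0.937. T and NK cell markers were lower on both measures, summing to 65.5 to 76.5 against 78.4 to 97.9 CPM. B cell markers summed to 350 to 1228 against 74.0 to 151 CPM, and their mean log2 CPM overlapped. The part of these markers in the subunit difference was not tested.

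Without Puma, loss of Mysm1 was accompanied by a lower median. In Mysm1-/-Puma-/- minus Puma-/- CD150-negative cells 0 of 78 were called by edgeR, where 1.63% of all genes were, 3 by DESeq2 and 0 by limma-voom. Unadjusted, 22 were lower and 0 higher, against 6.14% of all genes lower, and the median was -0.26 with 0.03 over all genes. Atp5d was at 18.3, 23.6 and 21.5 CPM against 30.7, 35.5 and 30.4 CPM in Puma-/- (log2 fold change -0.64, SE 0.17, edgeR adjusted p = 0.0618). Ndufa10, an accessory subunit of complex I, was at 48.1, 58.2 and 68.7 against 84.97, 80.4 and 81.7 CPM (log2 fold change -0.53, SE 0.16, edgeR adjusted p = 0.121). Groups were separate in both. Atp5o was at -0.48 (edgeR adjusted p = 0.129) and Ndufb7 at -0.48 (edgeR adjusted p = 0.198). 17 of 20 mitosis markers fell, with a median of -0.81, and without B5 2 subunit genes were called. Without B1, the library of high receptor background, the subunit median was -0.15. Puma loss alone left no gene called: in Puma-/- minus wild type 0 of 78 passed by edgeR, DESeq2 or limma-voom, and 0% of all genes were called by edgeR. Unadjusted, 1 was higher and 1 lower, against 1.32% of all genes in either direction, with a median of -0.06, which had no stable sign or size: it was 0.04 without D3, -0.03 without C3, -0.09 without D2, -0.12 without D4 and -0.13 without C2. The 4 smallest p belonged to Ndufa5 (-0.44), Atp5sl (0.39), Ndufa8 (-0.32) and Cox7c (-0.33), each with an edgeR adjusted p of 1. These CD150-negative comparisons share groups of 3 libraries and are not independent of each other.

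Representative subunits of each complex show the levels over the 8 groups. Sdha was at 330.2 ± 18.8 CPM in Mysm1-/-Puma+/-, 330.0 ± 23.96 in wild type, 323 ± 38.7 in Puma-/- and 266 ± 24.5 in Mysm1-/-Puma-/- CD150-negative cells (SD, n = 3 each), the first 3 within their spread of each other. Uqcrfs1 was likewise at 59.1 ± 3.72, 59.03 ± 1.999 and 58.9 ± 3.08 CPM, and at 45.9 ± 6.11 CPM in Mysm1-/-Puma-/-. Cox5a, by contrast, had its 4 means in steps, at 31.9 ± 6.12, 27.2 ± 4.12, 23.00 ± 1.04 and 20.5 ± 4.68 CPM, and neighbours overlapped within their SD. Ndufb8 was at 78.96 ± 13.2, 62.4 ± 6.02, 67.1 ± 7.90 and 50.4 ± 8.95 CPM. In CD150-positive cells Atp5a1 was at 934 ± 237 CPM in Mysm1-/-Puma+/- (SD, n = 4), 828 ± 51.98 in wild type (n = 4), 773 ± 94.9 in Puma-/- (n = 2) and 784 ± 111 in Mysm1-/-Puma-/- (n = 7), all within the spread of the first group. In the same order Cox6c was at 217 ± 46.1, 213 ± 31.4, 213 ± 10.5 and 182 ± 25.5 CPM.

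**Figure D4:**
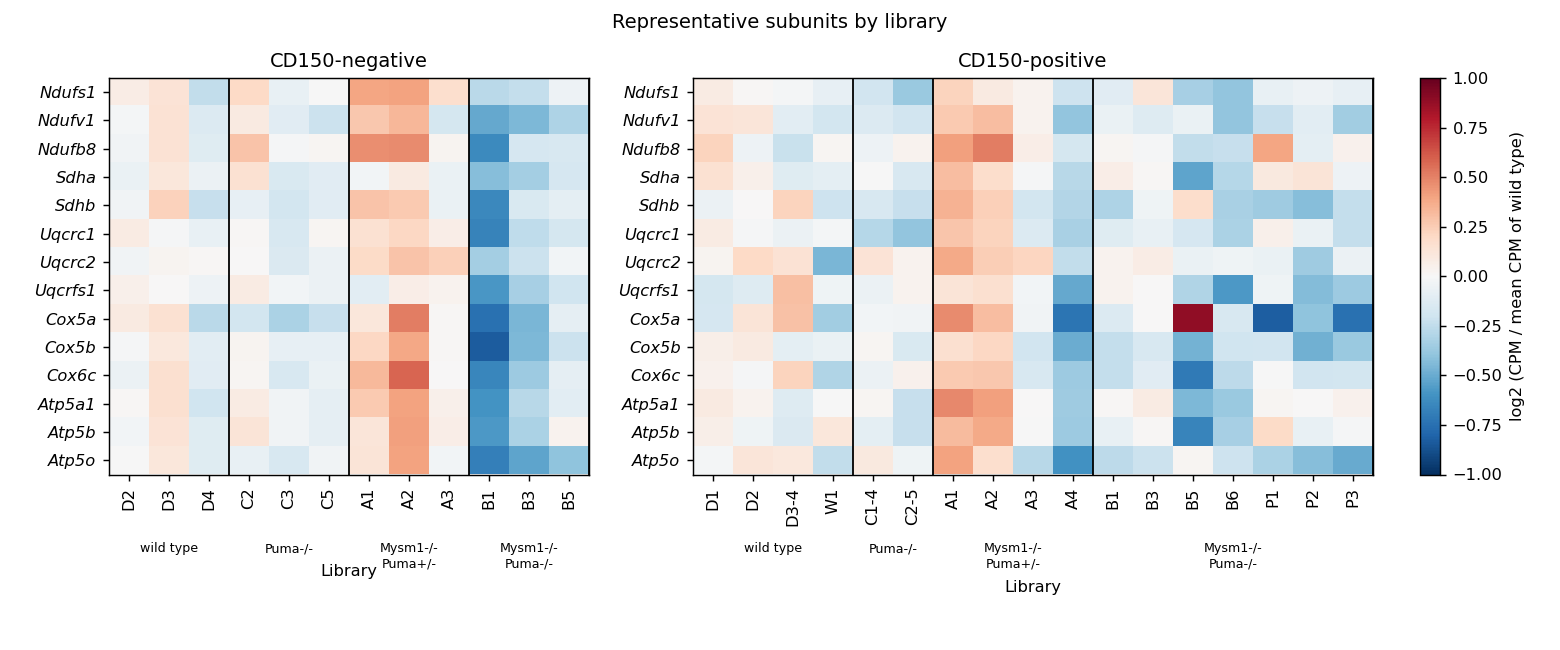
Heat map of 14 representative subunits, ordered by complex, in the 29 libraries, as log2 of the CPM over the mean of the wild-type libraries of the same fraction. Mysm1-/-Puma-/- CD150-negative libraries are below wild type in nearly all rows, and the CD150-positive Mysm1-/-Puma+/- libraries run from above wild type (A1, A2) to below it (A4).

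In the CD150-positive fraction no subunit gene was called in any of the 5 genotype comparisons, by edgeR, DESeq2 or limma-voom. Mysm1-/-Puma+/- minus wild type had a median of 0.18, with 4 higher at an unadjusted p under 0.05 (all genes: 0.482% called, 5.4% higher unadjusted). Ndufc1, a small membrane-arm subunit of complex I, was at 24.1, 17.8, 22.3 and 9.13 CPM against 9.77, 10.2, 12.6 and 4.73 CPM in wild type, 1.06 (SE 0.29, edgeR adjusted p = 0.114), with overlapping libraries. Ndufa13 was at 0.43 (edgeR adjusted p = 0.461), Atp5c1, the gamma subunit of the rotor, at 0.37 (edgeR adjusted p = 0.57), and Ndufs4 at 0.35 (edgeR adjusted p = 0.58). The median was 0.07 without A1, 0.09 without W1, 0.09 with P1 to P3 and W1 left out and 0.29 without A4, when 1 gene was called. Mitosis markers were graded over this group, with A4 lowest: their mean log2 CPM was 7.42, 7.22, 6.88 and 6.26 in A1 to A4, in the same order as the summed subunit level, and 6.95, 6.95 and 6.71 in D1, D2 and D3-4 and 6.57 in W1. Lineage markers were called in the same comparison: Selp at 2.15 (edgeR adjusted p = 2.11e-05) and Clec1b at 2.01 (edgeR adjusted p = 0.0301) of 13 megakaryocyte markers, with 6 higher unadjusted, and Nkg7 at 1.12 (edgeR adjusted p = 0.017) and Gzmb at 3.96 (edgeR adjusted p = 0.0412) of 12 T and NK cell markers. The T cell genes of that list went the other way without being called: Cd3d was at -0.56, Cd3e at -1.16, Cd3g at -1.34, Cd4 at -0.85 and Cd8a at -0.63. The T and NK cell list summed to 62.5 to 85.1 CPM in Mysm1-/-Puma+/- against 64.5 to 113 CPM in wild type, with overlap. The part of these markers in the subunit levels was not tested.

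The loss of Puma without Mysm1, which gave the most calls in CD150-negative cells, gave a median of -0.28 in CD150-positive cells, -0.22 with P1 to P3 and W1 left out and -0.16 without A1. Unadjusted, 19 of 78 were lower and 0 higher, against 2.61% of all genes lower, and 0% of all genes were called by edgeR. Ndufa12 was at 131, 102, 89.8 and 65.2 CPM in Mysm1-/-Puma+/- and from 47.1 to 79.7 CPM with a median of 60.8 in Mysm1-/-Puma-/- (log2 fold change -0.64, SE 0.20, edgeR adjusted p = 0.958), with overlap. Uqcrh was at 179.8, 143, 157 and 147 CPM against from 100.2 to 139.9 CPM with a median of 119.6, without overlap (log2 fold change -0.44, SE 0.15, edgeR adjusted p = 1). Atp5c1 was at -0.45 (edgeR adjusted p = 1) and Ndufv2, a core subunit of the NADH-oxidising module, at -0.51 (edgeR adjusted p = 1). In the same comparison 20 of 20 mitosis markers were lower unadjusted and 0 were called, with a median of -0.61. The 3 other contrasts had medians near 0, whose sign or size rested on single libraries. Mysm1-/-Puma-/- minus wild type had a median of -0.09, with 1 gene higher (Ndufc1, 0.66) and 1 lower (Atp5k, -0.36) unadjusted, where 0.358% of all genes were called and 7.35% passed unadjusted. The median was -0.16 without W1, -0.15 without B3, -0.04 without D3-4 and -0.10 with P1 to P3 and W1 left out. Uqcrh was at -0.30 and Uqcrq at -0.33 there. Puma-/- minus wild type had a median of -0.05 and 0 genes past an unadjusted p of 0.05, where 0% of all genes were called and 1.2% passed unadjusted. Among the smallest p there were those of Uqcrc1 (-0.38), Ndufs1 (-0.32) and Ndufc1 (0.45), from 2 Puma-/- libraries. The median was -0.13 without C1-4, -0.11 without W1, -0.03 without D1, 0.02 without C2-5 and 0.04 without D3-4, and W1 is the only P or W library in it. Mysm1-/-Puma-/- minus Puma-/- had a median of -0.06 and 0 genes past an unadjusted p of 0.05, where 0.129% of all genes were called and 9.01% passed unadjusted, with Uqcrc1 at 0.28, Uqcrh at -0.27, Ndufa12 at -0.36 and Sdhd at -0.30. That median was 0.05 without C1-4, 0.03 with P1 to P3 and W1 left out, -0.08 without B5, -0.09 without B3 and -0.10 without C2-5.

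**Figure D5:**
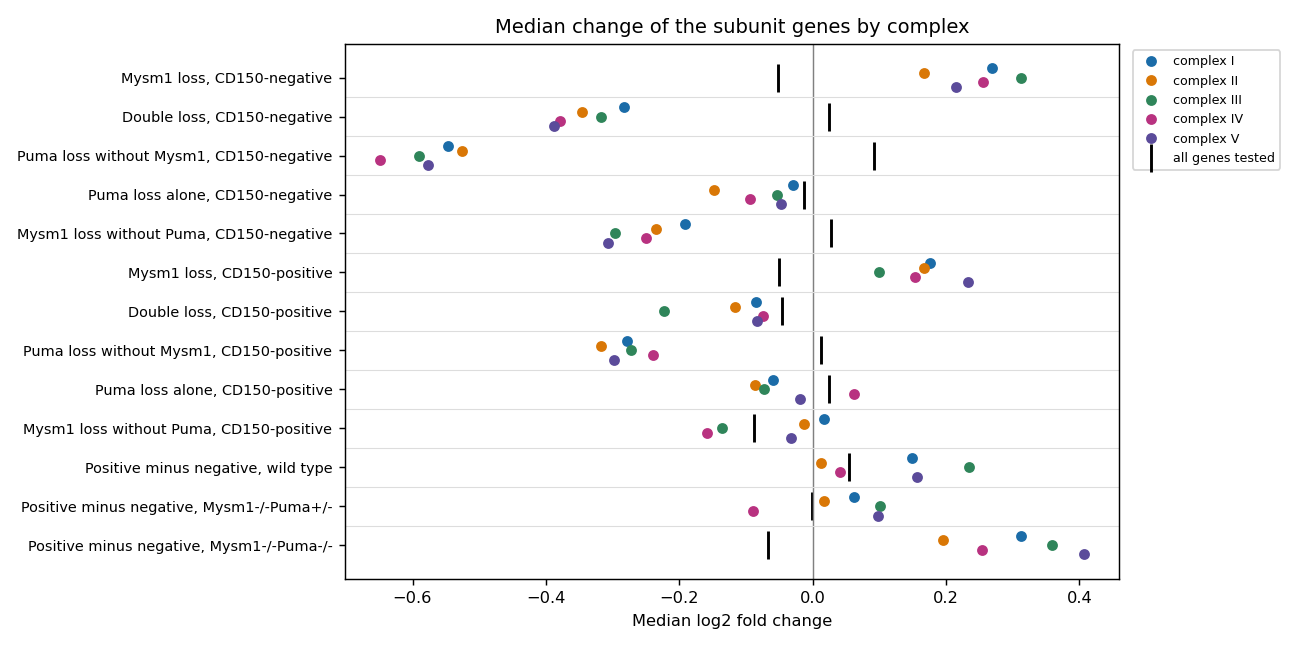
Median log2 fold change of the tested genes of each complex in the 10 genotype comparisons and the 3 comparisons of CD150-positive with CD150-negative cells, with a black tick at the median of all genes tested; double loss is Mysm1-/-Puma-/- minus wild type. The medians of all 5 complexes are lowest for the loss of Puma without Mysm1 in CD150-negative cells, from -0.65 in complex IV to -0.53 in complex II.

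The loss of Puma without Mysm1 could be compared between fractions directly. In the difference of the 2 effects, CD150-positive minus CD150-negative, 0 of 79 genes were called by edgeR, DESeq2 or limma-voom, and 0% of all genes were by edgeR. Unadjusted, 4 were higher, against 1.09% of all genes, and the median was 0.25, 0.16 without NEG B1, 0.45 without NEG B5 and 0.33 with P1 to P3 and W1 left out. The 4 were Cox5b (0.44, SE 0.20), Ndufa13 (0.44, SE 0.20), Atp5o (0.47, SE 0.22) and Cox7b (0.50, SE 0.25). The calls in CD150-negative and not in CD150-positive cells therefore do not show a difference between the fractions. For Mysm1 loss, the difference between fractions had a median of -0.09, whose sign and size rested on single libraries, from -0.18 without NEG A3 and -0.17 without NEG D3 to -0.02 without NEG A2 and 0.07 without POS A4. It was -0.06 without POS A3, -0.05 without POS D2, -0.04 without POS D3-4 and -0.07 with P1 to P3 and W1 left out. There were 0 genes called by the 3 tools, where 0.0137% of all genes were called by edgeR. Unadjusted, 1 gene passed, Uqcrb at -0.62, against 3.59% of all genes. Ndufs1 was at -0.28 and Ndufb11 at -0.28 in that difference.

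Between the fractions themselves, wild-type CD150-positive and CD150-negative cells had few differences in these genes. By edgeR 0 of 79 were called, where 6.94% of all genes were, against 3 by DESeq2 and 6 by limma-voom. For the latter tools the share of all genes called is not given, so their counts cannot be set against it. Unadjusted, 5 were higher in CD150-positive cells and 2 lower, against 8.03 and 9.08% of all genes, with a median of 0.14, 0.07 without POS D3-4 and 0.08 without NEG D4. With P1 to P3 and W1 left out the median was 0.16. Uqcrb was at 165, 181, 211 and 165 CPM in CD150-positive and 119.8, 133 and 110.0 CPM in CD150-negative cells, without overlap (log2 fold change 0.58, SE 0.19, edgeR adjusted p = 0.0608). Atp5k was at 68.97, 67.1, 91.8 and 57.2 against 42.8, 49.9 and 50.6 CPM, also without overlap (log2 fold change 0.58, SE 0.21, edgeR adjusted p = 0.0921). Uqcrh was at 0.44 (edgeR adjusted p = 0.0704) and Ndufv2 at 0.44 (edgeR adjusted p = 0.166), with overlap. The fitted log2 fold change of Cox6a2, -4.45, just missed the threshold (edgeR adjusted p = 0.0536). With 3 of 4 CD150-positive libraries at 0 it depends on the prior count. Without D2 of the CD150-positive group 1 gene was called, and without W1 2 were.

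In Mysm1-/-Puma+/- cells 1 gene was higher in the CD150-positive fraction and 0 were lower, where 2.67% of all genes rose and 3.16% fell. It was Ndufv3 (chr17:31657060-31668266, plus strand, NCBIM37), an accessory subunit beside the NADH site, at 73.01, 55.9, 58.4 and 54.5 CPM against 44.1, 44.6 and 41.7 CPM, without overlap (log2 fold change 0.48, SE 0.14, edgeR adjusted p = 0.0337). The median of the 79 was 0.06, -0.08 without POS A1, -0.03 without NEG A3, 0.03 without POS A2, 0.10 without NEG A2 and 0.15 without POS A4. The call was lost without any of A1, A2 or A3 of either fraction, and held without A4. With a block for libraries of the same name, 2 genes were called: Cox6a2, at -4.58 (edgeR adjusted p = 0.0125), and Ndufv2, at 0.67 (edgeR adjusted p = 0.0485), while Ndufv3 was at 0.53 (edgeR adjusted p = 0.0928). That fit kept only names found in both fractions and so lacked POS A4. In Mysm1-/-Puma-/- cells 13 of 79 were higher in CD150-positive cells and 1 was lower, against 5.18 and 6.99% of all genes, with a median of 0.31, 0.15 without the libraries of high receptor background (NEG B1 and POS B5 in these groups) and 0.50 without NEG B5. This median was 0.36 with P1 to P3 and W1 left out. Ndufv3 had the smallest p again, from 50.7 to 66.03 CPM with a median of 53.7 in CD150-positive cells and at 32.9, 40.5 and 36.7 CPM in CD150-negative cells (log2 fold change 0.63, SE 0.13, edgeR adjusted p = 0.000699). Atp5d was from 29.6 to 50.1 CPM with a median of 31.2 against 18.3, 23.6 and 21.5 CPM (log2 fold change 0.71, SE 0.17, edgeR adjusted p = 0.00355). Uqcrc1 (log2 fold change 0.43, edgeR adjusted p = 0.0161) and Atp5k (log2 fold change 0.65, edgeR adjusted p = 0.0193) had separate groups as well, while Ndufs4, Cox6a1 and Ndufa10 rose with overlapping libraries. Cox6a2 was the gene that fell, at 2.58, 6.62 and 0.936 CPM in CD150-negative cells and from 0 to 1.13 CPM with a median of 0.0667 in CD150-positive cells, with overlap (log2 fold change -3.53, SE 1.07, edgeR adjusted p = 0.0261); at such counts the fitted value depends on the prior count. Without NEG B1 1 gene was called, without NEG B3 5, without POS B3 8 and without POS B5 20. Among all genes under 1000 bases whose mean log2 CPM reached 5, 66 of 305 rose, with a median of 0.32, and 6 of 20 mitosis markers rose. Their part in the subunit difference was not tested.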

How the data were processed

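Gene counts of 29 libraries were used as deposited by the authors: whole reads per gene for 23366 genes. RNA (10 ng) was depleted of ribosomal RNA and sequenced as paired 50-base reads from a stranded kit, per the labels. Per the submitters' processing notes, the tools were FastQC, Trimmomatic 0.33, TopHat2 2.0.9, Bowtie 1.0.0, featureCounts, edgeR and R 3.4.2, with genome build mm9; the strand setting, annotation and treatment of multi-mapping reads are not given in the sources used here. A deposited CPM matrix was not used.

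Counts were fitted in edgeR 4.0.16 (R 4.3.3): filterByExpr, TMM scaling and robust quasi-likelihood F tests, with Benjamini-Hochberg adjustment over all genes tested (21168 in CD150-negative, 20944 in CD150-positive and 21830 over all libraries). Each fraction was fitted with its 4 genotypes, and the fractions were compared in 1 fit of all 29 libraries and 8 groups. Genes under an adjusted p of 0.05 were called. Levels are CPM scaled by TMM over 29 libraries, log2 values use a prior count of 2, and the standard error is the log2 fold change over the root of F. The procedure was tested on simulated data, drawn for each gene independently. They held no shifts shared by the genes of a library, so they do not bear on calls that rest on single libraries. Members were named by p, up to 8 called per comparison, or 4 where fewer than 2 were called, beside fixed representatives and isoforms. Sdhd, Uqcr10, Uqcrh, Cox7a2, Cox6b1, Cox6c, Cox8a, Cox5a, Atp5e, Ndufa4 and Ndufs6 were added in 1 comparison after their values were seen. A subunit gene and a marker gene are not reported here by name. The members and lists were chosen with earlier results of these data known. Replicates differed by far more than counting noise. Alternatives were DESeq2 1.42.0, limma 3.58.1 voom with quality weights, RLE scaling, no filter, the receptor background as a covariate, a replicate block and leaving out each library. For these alternatives the calls among subunit genes are given without the share of all genes called. Libraries of the same name in the 2 fractions are not said to share animals. Deviations of same-named A libraries correlated at 0.11, 0.64 and 0.56 (A1, A2, A3), and those of differently named A libraries from -0.60 to 0.21. As the same-named ones were over 0.1 in each, the blocked value stands beside the comparison of fractions in Mysm1-/-Puma+/-. Coordinates are from GENCODE vM1 (NCBIM37), where 80 of 81 genes had 1 match and 25 were overlapped by another gene.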

Additional observations from a re-analysis of the deposited data

Results flagged for a closer look

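In the CD150-positive Mysm1-/-Puma-/- group of 7 libraries, Ndufb8 was at 82.7 CPM in P1, above the other 6 libraries at 53.02 to 64.5 CPM. Uqcrc2 was at 65.5 CPM in P2, below the other 6 at 79.8 to 88.2 CPM. Cox5a was at 51.7 CPM in B5, above the other 6 at 15.8 to 28.02 CPM. Cox6c was at 130.4 CPM in B5, below the other 6 at 177 to 213 CPM. In each, the gap to the nearest library was a larger share of the group's range than Dixon's 95% critical value allows. They were 4 of 63 combinations of a gene or a summed level and a group examined, and chance gives about 1 in 20. The CD150-negative groups and CD150-positive Puma-/- had too few libraries to be examined. B5 was also a library of high receptor background, at 7491 CPM.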

How the results depend on the processing

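Of the medians over the tested subunit genes, that for the loss of Puma without Mysm1 in CD150-negative cells ranged from -0.61 to -0.46 under the other settings and that for Mysm1-/-Puma-/- minus wild type there from -0.38 to -0.20. In CD150-positive cells the medians of Mysm1-/-Puma-/- minus wild type (-0.15 to 0.07), Puma-/- minus wild type (-0.11 to 0.03) and Mysm1-/-Puma-/- minus Puma-/- (-0.16 to 0.03) took both signs, as did, leaving out each library, those of Puma-/- minus wild type in CD150-negative cells (-0.13 to 0.04), of Mysm1-/-Puma+/- between fractions (-0.08 to 0.15) and of Mysm1 loss between fractions (-0.18 to 0.07). Numbers of called genes moved far more, and the share of all genes called under each other setting is not given. For the loss of Puma without Mysm1 (CD150-negative, 32 called), they were 59 by DESeq2, 57 by voom, 12 with the background covariate and 1 without the libraries of high background, an alternative chosen after seeing the data, and 0 to 54 leaving out each library. For Mysm1-/-Puma-/- minus wild type (1) they were 6 by DESeq2, 6 by voom, 2 with the covariate and 0 without the high-background libraries, and 0 to 8 leaving out each library. For Mysm1-/-Puma+/- minus wild type in CD150-negative cells (0) they were 2 by DESeq2, 12 by voom and 2 without high-background libraries, and 0 to 2 leaving out each library. For Mysm1-/-Puma-/- minus Puma-/- (0) they were 1 with RLE scaling, 3 by DESeq2 and 1 with the covariate, and again 0 to 2. Mysm1 loss in CD150-positive cells (0) gave 0 to 1 leaving out each library. Between fractions, wild type (0) gave 3 by DESeq2, 6 by voom, 1 without a filter, 3 with the covariate and 2 without high-background libraries, and 0 to 2 leaving out each library. Mysm1-/-Puma+/- (1) gave 2 by DESeq2, 0 without a filter and 2 with the covariate, and 0 to 1. Mysm1-/-Puma-/- (14) gave 30 by voom, 9 without a filter and 3 without high-background libraries, and 1 to 20 leaving out each library, with its median at 0.50 without NEG B5 and 0.15 without high-background libraries against 0.31. The cause of these moves was not tested. Deviations of same-numbered libraries of different genotypes correlated from -0.48 to 0.32 in CD150-negative and from -0.05 to 0.46 in CD150-positive cells. Library numbers thus did not pair the CD150-negative genotypes, and CD150-positive pairs varied. With a block by number the CD150-positive median went from 0.18 to 0.33 for Mysm1 loss and from -0.09 to 0.07 for Mysm1-/-Puma-/- minus wild type. With the replicate block, called genes went from 32 to 1 for the loss of Puma without Mysm1 and from 1 to 0 for Mysm1-/-Puma-/- minus wild type in CD150-negative cells. They went from 0 to 1 for Mysm1 loss in CD150-positive cells, in the same smaller set of libraries. By library name across fractions, B1, B3 and B5 correlated at 0.03, 0.39 and -0.25, and the replicate block gave 2 in Mysm1-/-Puma+/- and 29 in Mysm1-/-Puma-/-. The block by name kept only names found in both fractions, so POS A4, B6 and P1 to P3 were left out of these counts. Depth limited the genes with few counts: Cox8b, Cox8c and Ndufs5 had 60, 61 and 19 counts over all 29 libraries.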
